A study of Arabidopsis thaliana with 60 samples.

Results

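Triparental triploids (TT) are Arabidopsis plants with 1 mother and 2 fathers, formed when an egg cell fuses with a sperm from each of 2 pollen donors. They were set against biparental diploids (BD), which have 1 mother and 1 father. The 5 TT and 5 BD plants are 10 of the 15 plants of the series, chosen by their labelled group alone, and every one of the 21450 genes in the deposited tables was compared between them. The remaining 5 plants are biparental triploids, which entered the model only to estimate the spread between plants. All plants carried the Col-0 background and had an ein3-1 mutant mother, with a mutant allele of the ethylene response gene EIN3. TT plants came from double pollination with a pair of donors whose constructs the labels do not give for each plant. BD plants came from a 2n mother pollinated by a 2n donor labelled pRPS5a::mGAL4-VP16/- and pUAS::BAR-YFP/-, which together drive a glufosinate resistance fused to a yellow fluorescent protein. Plants of both groups were selected on 25 mg/l glufosinate, moved to soil on day 9, checked for ploidy and fluorescence on day 17, and sampled as aerial tissue 18 days after sowing, under 16 h of light and 8 h of darkness at 23 °C. The 4 technical replicates of each plant had been combined by the authors, which leaves 5 plants in each group. The plants were separate individuals, and nothing in the labels ties plants of the same number to a shared mother, tray or day.

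Triploids carry an extra chromosome set in every cell, and their cells are known to be larger than those of diploids. Because RNA libraries are scaled to each other, a uniform rise of all transcripts with ploidy is not visible in such data, and only genes that depart from the rest can be seen. In whole aerial tissue, fewer cells of a type and less RNA per cell cannot be told apart. Genes induced by defence hormones, touch, darkness or low sugar are known to move together in large groups, so that they can be read as lists. Such a list varies from plant to plant as a unit, and a large difference of a list can come from a few plants.

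Reads counted on genes came to 23594275 to 26882280 in a TT plant (median 25343983), against 19534646 to 30756482 in BD (median 25240529). Transcripts of leaf tissue dominated in both groups. The summed TPM of 14 LHCB genes, which encode the antenna proteins of chloroplasts, was 50794 to 67416 in TT and 46181 to 66978 in BD, and that of 4 RBCS genes, the small subunits of Rubisco, was 47962 to 58832 in TT and 37847 to 51249 in BD. Of 9 floral organ markers 8 were listed, with a summed normalized count of 108.5 to 224 in TT and 116 to 314 in BD. Of 10 root markers 2 were listed, at 7.58 to 12.8 in TT and 4.996 to 16.5 in BD, and none of 8 seed storage markers was listed. The plant BD04 stood apart on chromosome 1. From AT1G70250 to the end of that chromosome, 764 genes with a mean normalized count of 50 or more had a median log2 difference of 0.56 between BD04 and the other BD plants, while the median of the 3507 such genes before that point was -0.0087. Single genes of the stretch need not follow its median. The median TT minus BD difference over the 764 genes was -0.11 with BD04 and -0.0035 without it, so that list medians are also given without BD04. The part of this stretch in the difference of any single gene was not tested.

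No single gene separated TT from BD at the threshold across all genes. In limma's test on log2(normalized count + 1), 0 of 21450 genes passed a Benjamini-Yekutieli adjusted p of 0.05 (0%), and the same holds without BD04 (0%). The Benjamini-Yekutieli adjusted p of limma was 1 for each of the 21450 genes. At an unadjusted p under 0.05, there were 514 genes, which is 2.40% of all genes where 5% would come from chance alone in independent tests. Of these, 211 were higher in TT (0.984% of all genes) and 303 were lower (1.41%). The split moved with the tool. It was 183 higher and 467 lower with edgeR's quasi-likelihood test under TMM normalization, 198 and 445 with the authors' size factors, 194 and 455 with DESeq2, and each of these also gave 0 genes past the adjusted threshold. Without BD04 the limma counts were 145 higher (0.676%) and 212 lower (0.988%). Without the triploid TT04 they were 607 higher (2.83%) and 629 lower (2.93%), more than in any other fit that left out a single plant. All 5 TT plants lay above all 5 BD plants for 53 genes (0.247%) and below them for 74 genes (0.345%), and without BD04, with fewer plants to overlap, for 86 (0.401%) and 119 genes (0.555%).

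The scale of what could have been seen was set by the spread between plants. Among 18783 genes with a mean normalized count of 10 or more, the median log2 difference was 0.00022, and 50.02% of these genes were higher in TT. The 95% interval of a gene's difference reached 0.37 to either side at the median, and for 16416 of these genes (87.4%) it lay within 1 log2 unit of 0 on both sides. Only 147 genes (0.783%) differed more than 2-fold in either direction. Plants of one group varied less among TT than among BD, with a median SD per gene of 0.21 on the log2 scale in TT and 0.27 in BD (n = 5 each). The SD was lower in TT for 68.1% of genes. Without BD04 the median SD of BD was 0.24, and the SD was lower in TT for 58.9% of genes.

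EIN3 (AT3G20770, chromosome 3), the gene of the mutant allele that all mothers carried, encodes a transcription factor that activates ethylene responses. Its normalized count was 1534, 1837, 1851, 1655 and 1512 in TT01 to TT05, against 1560.0, 1430.1, 1348, 1592 and 1225 in BD01 to BD05. The groups overlapped, with TT05 and TT01 below the highest BD plants. TT plants averaged 1678 ± 161 and BD plants 1431 ± 151 (SD, n = 5 each), which is 0.23 on the log2 scale (p = 0.0476 in a 2-sided exact permutation test, where 0.00794 is the smallest that 5 against 5 plants allow). Leaving out a single plant kept the difference between 0.18 and 0.27, with an exact p of 0.0476 without TT01, TT05, BD01 or BD04 and of 0.0952 without any other plant. Limma gave an adjusted p of 1. TT and BD plants differ in their number of fathers, and so in the share of EIN3 copies that came from the mutant mother. The part of this share in the EIN3 difference was not tested. The 18 genes of ethylene signalling and synthesis had a median difference of 0.06, with 11 higher and 7 lower in TT.

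Pathways were read as lists of genes. For each list the difference is the median over its members of the log2 difference TT minus BD, and the level in a plant is the median over members of each gene's deviation from its mean over the 15 plants, on the log2 scale. Over all 21450 genes the median difference was -0.0032, with 49.4% higher and 50.6% lower in TT. Of 34 lists with enough expressed members, the 8 with the largest medians are described one by one. These were lists of defence, stress, starvation and detoxification genes with lower medians in TT, and of stomatal development and ribosome biogenesis genes with higher medians. Members of a list share their regulators and their plants and are not replicates of TT or BD.

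**Figure D1:**
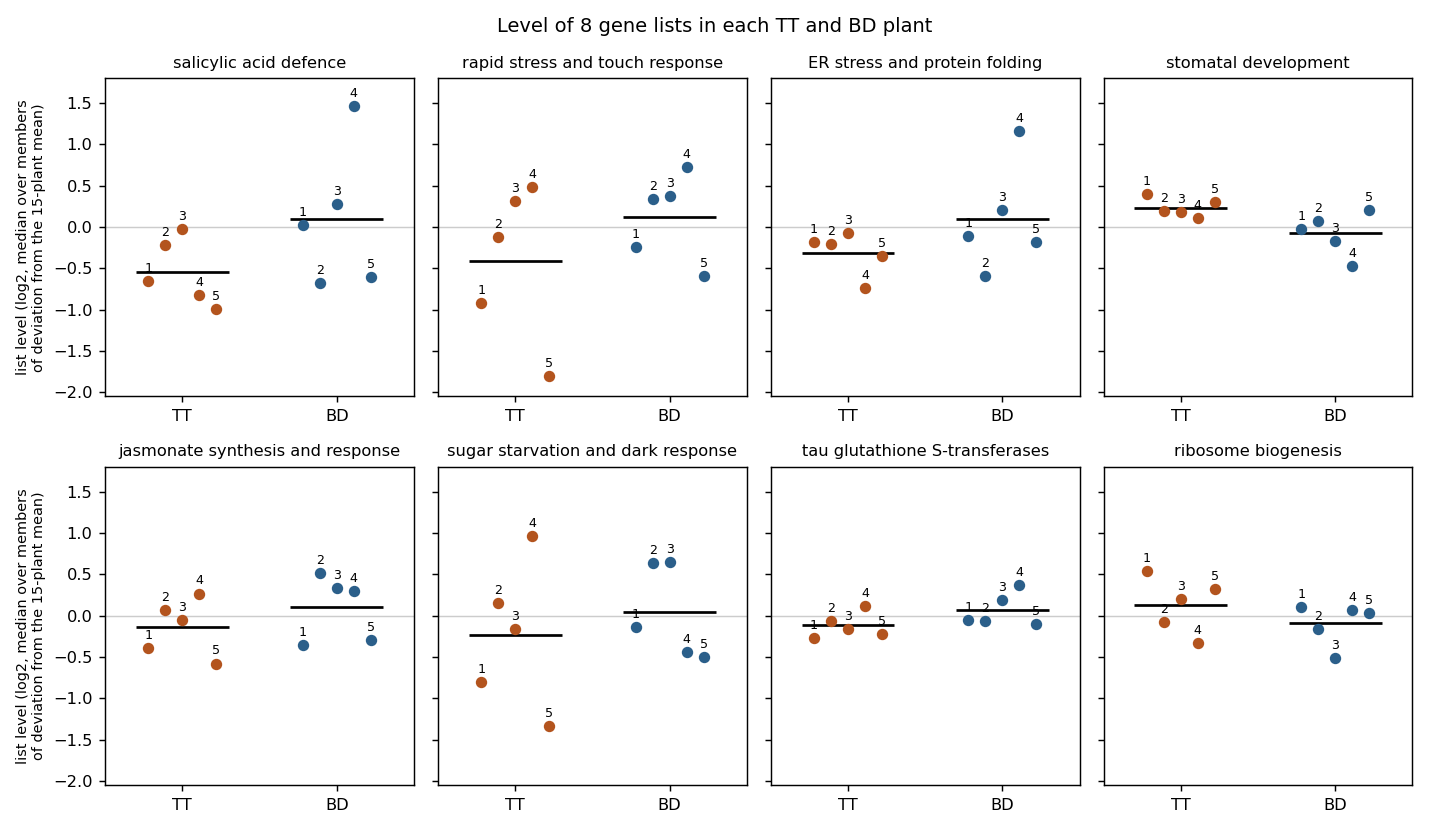
Level of 8 gene lists in each TT plant (left, brown) and BD plant (right, blue) on the log2 scale, with the plant's number beside its point and a bar at the group mean. Groups overlap in every panel, BD04 is highest for salicylic acid defence at 1.47, and TT04 and TT05 are the highest and the lowest TT plant for rapid stress and for sugar starvation.

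Salicylic acid is a hormone of immunity against biotrophic pathogens. Its synthesis, its receptors of the NPR1 type and the pathogenesis-related (PR) proteins form a module that rises together in leaves. Of 22 listed genes 21 were lower in TT and 1, ALD1, was higher, with a median log2 difference of -0.50. None had an unadjusted p under 0.05. The list's level was -0.66, -0.21, -0.03, -0.82 and -0.99 in TT01 to TT05, against 0.03, -0.68, 0.28, 1.47 and -0.60 in BD01 to BD05. BD04 was the highest of the 10 plants, BD01 and BD03 also lay above all TT plants, and BD02 and BD05 lay within the TT range. Without BD04 the median difference was -0.22, with 4 higher and 18 lower.

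NIMIN1, a small protein that binds NPR1 and holds back PR1, had a normalized count of 148, 129.95, 153, 112 and 55.5 in TT, against 136, 164, 600.3, 754 and 225 in BD. All BD plants but BD01 lay above all TT plants, BD02 by little. Its log2 difference was -1.39 (SE 0.69, unadjusted p = 0.0636 and adjusted p = 1, limma), the smallest p of the list, and -1.05 without BD04. EDS1 and PAD4 encode lipase-like partner proteins that act upstream of salicylic acid. EDS1 had 609, 945, 1223, 1081 and 728 in TT, against 1149.5, 1008, 1364, 2145 and 843 in BD, a log2 difference of -0.47 (-0.27 without BD04). For PAD4 the counts were 555, 920.5, 1011, 881 and 646 in TT, against 1023, 766, 1259, 1623 and 749 in BD, with a difference of -0.41 (-0.24 without BD04). BD03 and BD04 lay above all TT plants in both genes, as did BD01 in PAD4, and the others overlapped.

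The PR genes, the outputs of the module, varied widely between plants. PR1, the usual marker of the salicylic acid response, had 5100.0, 4581, 2529, 336 and 2365 in TT, against 7602, 68.7, 2912, 40179 and 3404 in BD, so that both the highest and the lowest count were BD plants. Its log2 difference was -0.43 (SE 1.64, unadjusted p = 0.796, limma) with all plants, 0.51 without BD04 and 0.24 without TT04, and no direction can be given. BGL2, the beta-1,3-glucanase also called PR2, had 2774, 10263, 14926, 2451 and 3935 in TT, against 18989, 2867, 20902, 45594 and 4483 in BD. PR5, a thaumatin-like protein, had 3583, 3595, 7665, 1881 and 2365 in TT, against 9479.5, 1486, 9264, 36316 and 2139.6 in BD. In both genes BD01, BD03 and BD04 were above every TT plant while BD02 and BD05 were within or below the TT range. The differences were -1.17 for BGL2 and -0.91 for PR5 with all plants, and -0.68 and -0.28 without BD04. PR5, SARD1 and EDS16 (ICS1, the isochorismate synthase that makes salicylic acid) lie in the stretch of chromosome 1 whose median was higher in BD04, and BD04 had the highest count of the BD plants in each.

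The list of rapid stress and touch responses holds transcription factors and calmodulin-like proteins whose transcripts are known to climb within minutes of touch, wounding or cold. Of its 30 measured genes 28 were lower in TT and 2, the cold regulators CBF2 and DREB1A, were higher, with a median difference of -0.45 and no unadjusted p under 0.05. Its level was -0.92, -0.12, 0.32, 0.49 and -1.81 in TT, against -0.24, 0.34, 0.38, 0.72 and -0.60 in BD. TT01 and TT05 were the lowest of the 10 plants, and TT03 and TT04 were among the 5 highest. The median was -0.27 without BD04, -0.69 without TT04 and -0.11 without TT05.

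SIB1, a chloroplast and nuclear partner of the defence factor WRKY33, had 596, 1023, 1253, 1008 and 536 in TT, against 1261, 772, 958, 2168 and 1038 in BD, a log2 difference of -0.47 (SE 0.33, unadjusted p = 0.172, limma). ZAT6, a zinc finger regulator of stress responses, had 149, 185, 308, 246 and 58.3 in TT, against 259, 193, 234, 323 and 161 in BD, a difference of -0.46. ERF11, a repressor of the ethylene response factor family, had 32.0, 50.9, 89.3, 179 and 23.9 in TT, against 61.4, 242, 140.5, 153 and 29.98 in BD, a difference of -0.78. The groups overlapped in each of these genes, with TT05 the lowest of the 10 plants. The calmodulin-like TCH3, at 157 TPM in TT and 189.8 TPM in BD the most abundant member per length, had 1341, 4235, 5447, 9191 and 1924 in TT, against 4246, 5577, 5576, 8034 and 2307 in BD, a difference of -0.43. TCH4, a cell wall enzyme induced by touch, had 1085, 3865, 5959, 15962 and 644 in TT, against 1153, 15530.2, 9369, 2032 and 3987 in BD. Its lowest and its highest counts were both TT plants.

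ER stress and protein folding genes encode the chaperones of the endoplasmic reticulum, among them the BiP proteins, calnexin, calreticulins and protein disulfide isomerases, which the transcription factor BZIP60 induces when unfolded proteins build up. All 12 listed genes were lower in TT, with differences of -1.17 to -0.24 and a median of -0.39, and 11 of 12 without BD04, at a median of -0.15. None had an unadjusted p under 0.05. By plant, the level was -0.18, -0.21, -0.08, -0.74 and -0.35 in TT, against -0.10, -0.60, 0.21, 1.16 and -0.19 in BD. BD04 and BD03 lay above all TT plants and the other BD plants lay within the TT range. The means were -0.31 ± 0.26 in TT and 0.10 ± 0.66 in BD (SD, n = 5 each), and -0.17 ± 0.33 in BD without BD04 (n = 4).

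BZIP60 had 606, 682, 725, 1231 and 429 in TT, against 648, 1009, 1607, 1502 and 737 in BD, a log2 difference of -0.57 (SE 0.31, unadjusted p = 0.0864 and adjusted p = 1, limma; -0.44 without BD04). SDF2, a protein of the endoplasmic reticulum needed in the unfolded protein response, had 1381, 1341, 1420.3, 1093 and 1201 in TT, against 1496, 1104, 1889.9, 2963 and 1448 in BD, a difference of -0.39 (-0.19 without BD04). SHD, the HSP90 of the endoplasmic reticulum, had 10429, 11113, 12499.7, 7579.6 and 10439 in TT, against 12620.0, 8822, 14582, 30539.5 and 10206 in BD, a difference of -0.43 (-0.14 without BD04). SHD was the most abundant member per length, at 133 TPM in TT and 195 TPM in BD. In SDF2 all BD plants but BD02 lay above all TT plants, and in SHD 3 BD plants did, with BD04 the highest in both. BIP3, the strongly inducible BiP, had 36.4, 123, 69.1, 21.3 and 36.3 in TT, against 86.8, 12.7, 613, 854 and 23.7 in BD, with both the 2 highest and the lowest counts in BD.

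The 250 bases before the start of each gene, from RefSeq on TAIR10.1, were searched on both strands for motifs. The G-box CACGTG was in 5 of the 12 windows of the ER list (41.7%), against 7.22% of all 21282 windows. The ABRE ACGTGNC, whose letters overlap with the G-box, was in 5 of 12 against 9.32% of all windows. The jasmonate list described next had the G-box in 5 of its 26 windows (19.23%). All 12 ER genes were lower in TT, with or without the motif. The windows of the 3 ER genes BZIP60, SDF2 and SHD and of the jasmonate repressor TIFY10B are shown as members that carry the motif. They are printed 5′ to 3′ on the gene's strand with the G-box in capitals. In BZIP60 the motif starts 153 bases before the gene, in SDF2 62, in SHD 7 and in TIFY10B 66, and the SHD window overlaps the neighbouring gene AT4G24200. A match is a description of the sequence and not evidence that a factor binds there.
BZIP60, chr1:16137464-16137713, minus strand: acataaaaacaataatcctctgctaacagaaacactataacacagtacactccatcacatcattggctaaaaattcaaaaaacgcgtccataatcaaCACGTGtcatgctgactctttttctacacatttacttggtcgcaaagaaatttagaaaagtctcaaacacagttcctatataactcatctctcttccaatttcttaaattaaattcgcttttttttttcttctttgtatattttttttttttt
SDF2, chr2:10683868-10684117, plus strand: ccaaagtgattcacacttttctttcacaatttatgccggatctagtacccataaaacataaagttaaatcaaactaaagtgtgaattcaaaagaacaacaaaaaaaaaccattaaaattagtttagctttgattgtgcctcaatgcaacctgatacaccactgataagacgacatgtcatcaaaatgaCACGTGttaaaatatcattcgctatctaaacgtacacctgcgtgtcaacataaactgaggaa
SHD, chr4:12556059-12556308, minus strand: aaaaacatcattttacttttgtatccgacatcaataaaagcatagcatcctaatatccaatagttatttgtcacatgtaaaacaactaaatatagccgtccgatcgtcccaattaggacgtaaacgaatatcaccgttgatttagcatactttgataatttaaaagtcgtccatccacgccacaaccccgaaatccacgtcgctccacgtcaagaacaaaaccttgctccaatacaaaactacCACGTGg
TIFY10B, chr1:28150447-28150696, minus strand: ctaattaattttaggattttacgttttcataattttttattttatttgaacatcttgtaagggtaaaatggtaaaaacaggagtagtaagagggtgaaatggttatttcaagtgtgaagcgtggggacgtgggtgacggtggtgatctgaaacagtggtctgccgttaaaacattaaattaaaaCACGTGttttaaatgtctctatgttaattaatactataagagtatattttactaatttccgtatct

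Jasmonate is made from membrane lipids through the LOX, AOS, AOC and OPR3 enzymes and is perceived by COI1, which removes the JAZ repressors from the factor MYC2. JAZ genes are themselves targets of the hormone. Of 26 listed genes 24 were lower in TT and 2 were higher (AOS and JMT, by 0.20 and 0.01), with a median of -0.30, which was -0.29 without BD04 and -0.16 without TT05. None had an unadjusted p under 0.05. By plant, the level was -0.39, 0.06, -0.05, 0.27 and -0.58 in TT, against -0.36, 0.52, 0.34, 0.30 and -0.29 in BD. BD02, BD03 and BD04 lay above all TT plants, and BD01 and BD05 lay with the lower TT plants.

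Among the biosynthetic enzymes, the allene oxide cyclase AOC2 had 9096, 7597, 7661, 7348 and 7273 in TT, against 8957, 8004, 9176, 10139.9 and 9726 in BD, a log2 difference of -0.24 (SE 0.14, unadjusted p = 0.117, limma). Apart from TT01 every TT plant lay below every BD plant. AOC2 was also the most abundant member, at 314 TPM in TT and 365 TPM in BD, and has close paralogs among which reads may be shared. Among the repressors, TIFY10B (JAZ2) had 476, 606, 557, 705 and 439.9 in TT, against 559, 844, 627, 982 and 498 in BD, a difference of -0.31 (-0.17 without BD04). JAZ1 had 881, 1114, 1198, 1292 and 328 in TT, against 800.5, 2132, 1453, 1231 and 1030.5 in BD, a difference of -0.53 (-0.54 without BD04). Both repressors overlapped between the groups, with BD02 above all TT plants and TT05 lowest. JAZ7 ranged most widely, with 38.2, 129.95, 74.9, 600.4 and 8.61 in TT, against 15.6, 1036, 443, 107 and 56.2 in BD. LOX4, TIFY10B, JAZ6 and TIFY7 lie in the stretch whose median was higher in BD04, which was the highest BD plant in LOX4 and TIFY10B but not in JAZ6 and TIFY7.

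Genes of sugar starvation and darkness, such as the DIN genes, are induced when leaves run out of carbon and are known to be active at night. Of 17 listed genes 14 were lower in TT and 3 higher, with a median of -0.29. The median depended on 2 TT plants, being -0.63 without TT04 and -0.00 without TT05, and it was -0.44 without BD04. Across plants the level was -0.80, 0.16, -0.17, 0.97 and -1.34 in TT, against -0.14, 0.64, 0.65, -0.44 and -0.50 in BD, so that the highest and the lowest of the 10 plants were both TT. BT2, a scaffold protein that answers to sugar and nitrate, followed this pattern, with 3284, 2661, 2738, 15460.1 and 309 in TT, against 6107, 11158, 9979, 1419 and 3213 in BD. Its log2 difference was -0.95 (SE 0.78, unadjusted p = 0.242, limma), and -1.60 without TT04 and -0.19 without TT05.

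DIN4, a subunit of the enzyme complex that breaks down branched-chain keto acids, went the other way from most of the list, with 516, 545, 530.1, 604 and 455 in TT, against 440.0, 601, 549, 379 and 458 in BD, a difference of 0.14. BCAT-2, an aminotransferase of branched-chain amino acids, had 23.1, 46.6, 23.0, 55.5 and 17.2 in TT, against 57.4, 29.3, 36.2, 59.1 and 28.7 in BD, a difference of -0.41. Both overlapped between the groups. DIN2, a beta-glucosidase, was close to 0 in most plants, with 0.889, 54.1, 0.96, 1.07 and 0.956 in TT, against 1.64, 0, 0, 727 and 0 in BD. Its difference of -0.24 with all plants and 1.59 without BD04 rests on TT02 and BD04, and no unadjusted p of the list was under 0.05.

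Tau glutathione S-transferases (GSTU) attach glutathione to foreign and reactive compounds, and many lie in tandem arrays of near-identical copies, so that the split of reads between neighbours is uncertain. Of 22 listed genes 18 were lower in TT and 4 higher, with a median of -0.23, and 17 and 5 without BD04, at -0.12. Over the 18 members with a mean normalized count of 10 or more the median was -0.18. On that measure heat shock genes (-0.24) and DNA methylation genes (0.22), not among the 8 lists, had larger medians. Levels were -0.27, -0.06, -0.16, 0.12 and -0.22 in TT, against -0.06, -0.07, 0.18, 0.38 and -0.10 in BD. GSTU19 had 11569, 12134, 12062, 13686 and 10574 in TT, against 9706, 13554, 16834, 24034 and 12750.2 in BD, a log2 difference of -0.29 (SE 0.22, unadjusted p = 0.194, limma; -0.12 without BD04). GSTU20, the most abundant member at 635 TPM in TT and 718 TPM in BD, had 15292, 15287, 12315, 19954 and 15325 in TT, against 10295, 17094, 19658, 15528 and 27781 in BD, a difference of -0.15 that was 0.021 without BD05. TT values of both genes lay inside the BD range. GSTU7 had 233, 263, 280.4, 219.7 and 248 in TT, against 256, 256, 309, 372 and 256 in BD, a difference of -0.21. GSTU12 was at 0 in all 5 TT plants and had 3.28, 1.27, 0, 4.61 and 0 in BD, too few reads for a fold change. GSTU3 was high in a single plant, with 0.889, 1.08, 0, 0 and 7.65 in TT, against 4.10, 0, 0, 518 and 2.50 in BD. GSTU10, GSTU19, GSTU20, GSTU21 and GSTU23 lie in the stretch whose median was higher in BD04, which was the highest BD plant in GSTU10 and GSTU19 but not in GSTU20, GSTU21 and GSTU23.

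**Figure D2:**
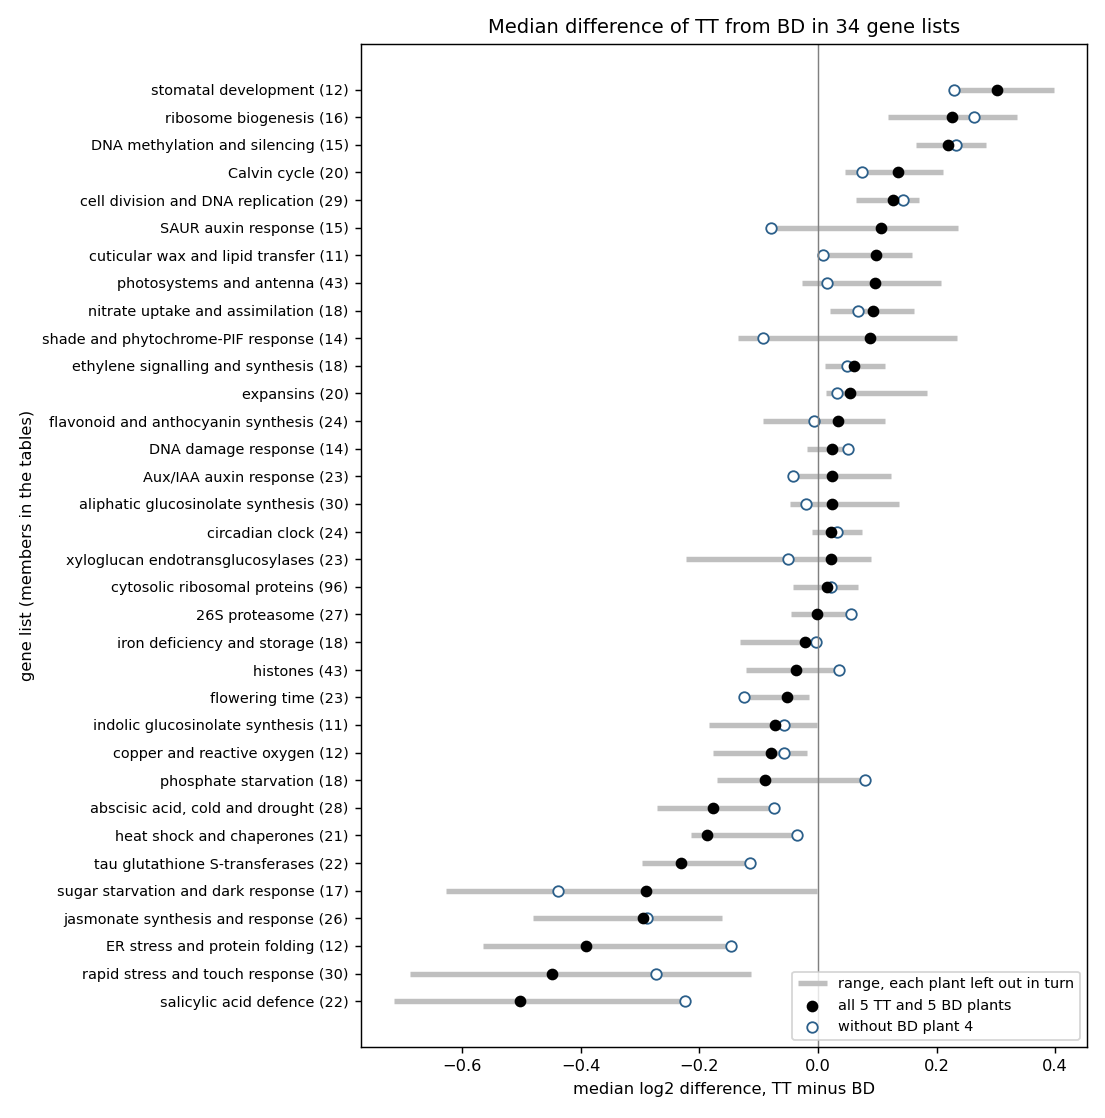
Median log2 difference TT minus BD of the 34 gene lists, with the number of members in parentheses. Black points use all 5 TT and 5 BD plants, open points leave out BD04, and grey bars span the medians when each plant is left out in turn. The bar of stomatal development runs from 0.23 to 0.40 and that of sugar starvation from -0.63 to -0.00.

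Stomata arise from a lineage in which the transcription factors SPCH, MUTE and FMA (FAMA) act one after another, while the peptides EPF1 and EPF2, the receptor kinases ER, ERL1 and ERL2, the receptor-like protein TMM and the protease SDD1 keep stomata spaced. Both the promoting and the restraining genes were higher in TT. All 12 listed genes were higher, with differences of 0.09 to 0.50 and a median of 0.30, and all 12 again without BD04, at 0.23. Of the 12, 3 had an unadjusted p under 0.05 (1 without BD04), where 0.984% of all genes were higher in TT at that level. Levels of the list were 0.40, 0.19, 0.18, 0.10 and 0.30 in TT, against -0.02, 0.07, -0.17, -0.47 and 0.21 in BD. TT plants averaged 0.24 ± 0.11 and BD plants -0.08 ± 0.26 (SD, n = 5 each), and only BD05 reached into the TT range. With any single plant left out the median stayed between 0.23 and 0.40.

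Among the factors, FMA, which drives the last step to guard cells, had 676, 605, 579, 529 and 621 in TT, against 554, 433, 495, 449 and 535 in BD, a log2 difference of 0.29 (SE 0.11, unadjusted p = 0.023 and adjusted p = 1, limma; 0.26 without BD04). MUTE, which acts between SPCH and FMA, had 148, 125, 129, 128 and 150.1 in TT, against 90.9, 116, 104, 66.8 and 142 in BD, a difference of 0.42. SPCH, which starts the lineage, had 428, 357, 362, 286 and 363 in TT, against 329, 313, 266, 223 and 336 in BD, a difference of 0.30. In FMA TT04 lay below BD01 and BD05, in MUTE BD05 lay within the TT range, and in SPCH TT04 lay below 3 BD plants.

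Among the receptors, ERL2 had 486, 506, 535, 427 and 478 in TT, against 371, 472, 345, 316 and 421 in BD, a difference of 0.35 (SE 0.12, unadjusted p = 0.0104 and adjusted p = 1, limma; 0.28 without BD04). ER, the most abundant member at 22.4 TPM in TT and 19.6 TPM in BD, had 1522, 1778, 1735.3, 1640.3 and 1935 in TT, against 1780.4, 1767, 1231, 1057 and 1709.9 in BD, a difference of 0.22 (0.10 without BD04). Only BD02 overlapped with TT in ERL2, whereas 3 BD plants did in ER. SDD1 had 349, 303, 283, 225 and 292 in TT, against 265, 249, 209.6, 133 and 189.9 in BD, a difference of 0.50 (SE 0.23, unadjusted p = 0.0429, limma; 0.34 without BD04). The peptide EPF1 had 94.2, 80.1, 95.1, 72.5 and 99.5 in TT, against 76.2, 44.5, 74.6, 46.9 and 82.4 in BD, a difference of 0.47. TT04 was the lowest TT plant in ERL2, SDD1 and EPF1. TMM, with a difference of 0.09, lies in the stretch whose median was higher in BD04.

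**Figure D3:**
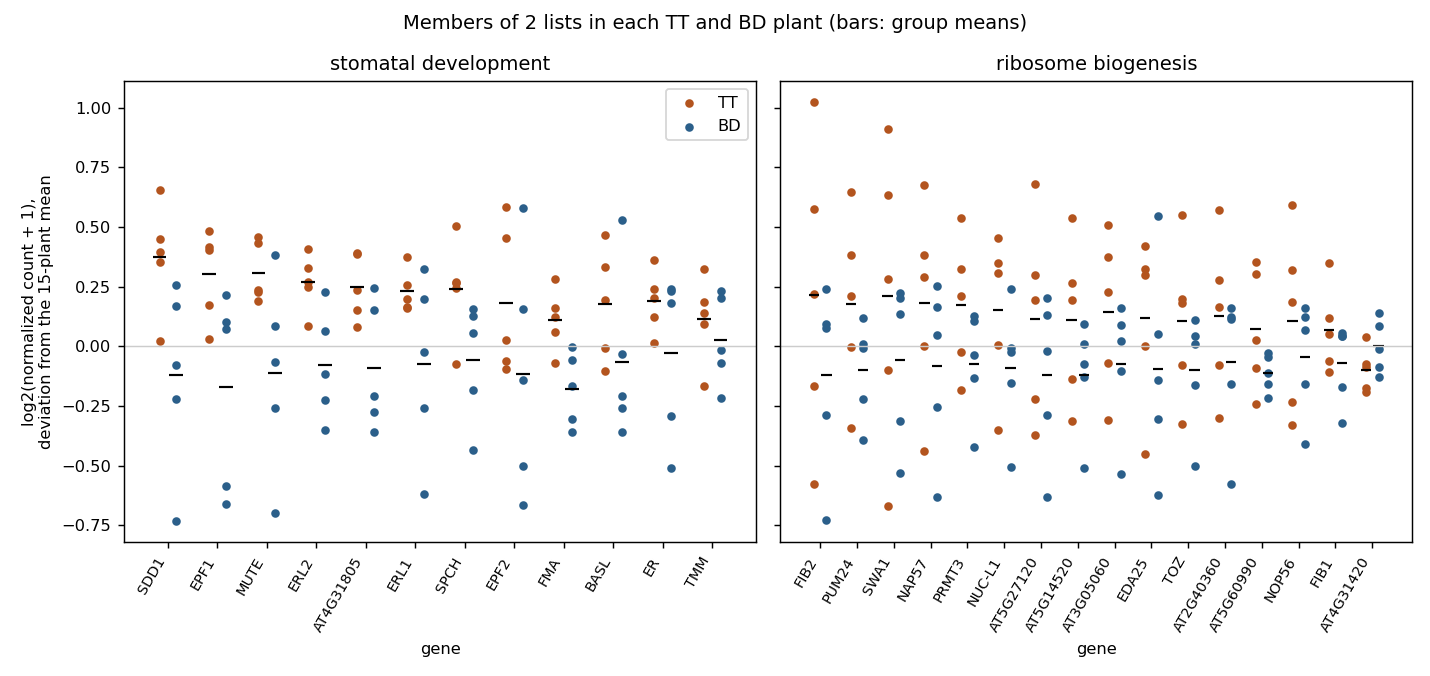
Each member of the stomatal development list (left) and the ribosome biogenesis list (right) in each TT plant (brown) and BD plant (blue), as log2(normalized count + 1) minus the gene's mean over the 15 plants, with bars at the group means. The TT mean is above the BD mean for 12 of 12 and 15 of 16 genes.

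Ribosome biogenesis genes encode nucleolar proteins that modify and cut ribosomal RNA, such as fibrillarin, nucleolin and the NOP56 and NAP57 core proteins. Of 16 listed genes 15 were higher in TT and AT4G31420 was lower, with differences of -0.10 to 0.34 and a median of 0.23, which was 0.26 without BD04. The list's level was 0.55, -0.08, 0.20, -0.33 and 0.32 in TT, against 0.10, -0.16, -0.51, 0.07 and 0.03 in BD. TT01, TT03 and TT05 lay above all BD plants, and TT04 lay below all but BD03. No member had an unadjusted p under 0.05 with all plants. Without BD04 1 of 16 did. Without TT04, the TT plant with the lowest level, 8 of 16 did, all higher in TT. Leaving out the lowest TT plant raises the TT mean by construction, and the members share their plants, so this count is no separate support. Even without TT04, TT and BD values overlapped in all 16 genes. The 96 genes of cytosolic ribosomal proteins, the other part of the ribosome, had a median difference of 0.02, with 59 higher and 37 lower.

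PUM24, an RNA-binding protein of rRNA processing, had 1201, 766, 888, 605 and 1002 in TT, against 832, 658, 584, 772 and 764 in BD, a log2 difference of 0.28 (SE 0.16, unadjusted p = 0.0944 and adjusted p = 1, limma). PRMT3, an arginine methyltransferase, had 756, 511, 601, 458 and 650.3 in TT, against 559.6, 473, 387, 506 and 567 in BD, a difference of 0.25. AT5G14520, a pescadillo-like protein, had 2321, 1453, 1829, 1285 and 1920.2 in TT, against 1704, 1459, 1123, 1608 and 1518 in BD, a difference of 0.23. In these genes TT01, TT03 and TT05 were the 3 highest plants and TT04 was among the 2 lowest. NUC-L1, the nucleolin and most abundant member at 242 TPM in TT and 202 TPM in BD, had 17634, 12919, 15921, 10089 and 16390.0 in TT, against 15206, 11548, 9055, 12779.9 and 12665 in BD, a difference of 0.24. FIB2, a fibrillarin, had 2767, 1213, 1586, 911 and 2024 in TT, against 1432, 1115, 821, 1452 and 1606 in BD, a difference of 0.34.

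The telo box AAACCCTA was in 4 of the 16 windows of this list (25.0%), against 3.65% of all 21282 windows of 250 bases. It was not particular to this list, being also in 3 of 17 windows of the sugar starvation list (17.65%), whose median was lower in TT. The windows of FIB1, the other fibrillarin, and NOP56 are shown as members that carry it, with the telo box in capitals. It starts 207 bases before the gene in FIB1 and 17 in NOP56, whose window overlaps the neighbouring gene AT1G56120. The differences of these members were 0.14 for FIB1 and 0.15 for NOP56.
FIB1, chr5:21293897-21294146, plus strand: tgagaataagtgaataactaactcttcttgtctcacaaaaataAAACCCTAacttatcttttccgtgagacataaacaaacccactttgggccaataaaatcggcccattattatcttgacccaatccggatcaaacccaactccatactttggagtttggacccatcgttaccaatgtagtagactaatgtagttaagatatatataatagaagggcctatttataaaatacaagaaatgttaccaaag
NOP56, chr1:20986953-20987202, minus strand: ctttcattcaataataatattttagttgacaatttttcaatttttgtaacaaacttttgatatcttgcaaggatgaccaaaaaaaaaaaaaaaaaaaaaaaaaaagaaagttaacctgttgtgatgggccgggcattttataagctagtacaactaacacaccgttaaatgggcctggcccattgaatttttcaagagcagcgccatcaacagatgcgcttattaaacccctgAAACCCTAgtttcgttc

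In the other lists of defence-related and detoxifying genes the W-box TTGAC, the site of WRKY factors, was in 10 of 22 windows of the salicylic acid list (45.5%), 17 of 30 of the rapid stress list (56.7%) and 15 of 22 of the GSTU list (68.2%), against 44.9% of all windows. The G-box was in 0 of 12 stomatal windows and in 2 of 16 ribosome biogenesis windows (12.5%), both lists with higher medians in TT. Among lists with lower medians it was in 1 of 17 sugar starvation windows (5.88%) and 1 of 22 GSTU windows (4.55%). It was in 2 of 22 windows of the salicylic acid list (9.09%) and 4 of 30 of the rapid stress list (13.3%). The heat shock element GAANNTTC was in 7 of 22 windows of the salicylic acid list (31.8%) and 8 of 30 of the rapid stress list (26.7%). It was also in 4 of 17 windows of the sugar starvation list (23.5%) and in 3 of 16 of the ribosome biogenesis list (18.75%), whose median was higher in TT. It was in 1 of 26 windows of the jasmonate list (3.85%), 1 of 12 of the ER list (8.33%) and 2 of 22 of the GSTU list (9.09%). None of the stomatal windows held it, against 9.53% of all windows. Every motif was counted in each of the 8 lists, and only some of these counts are given.

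The 26 other lists held 638 members, with medians between -0.19 and 0.22. Of these medians 17 were above 0 and 9 below. An unadjusted p under 0.05 was found for 2 members higher and 7 lower in TT, no larger a share than the 0.984% and 1.41% of all genes. Genes of DNA methylation and silencing came next after the 8 lists. All 15 were higher in TT with and without BD04, with medians of 0.22 and 0.23, and the list's level was 0.21, 0.11, 0.19, -0.05 and 0.25 in TT, against 0.12, 0.04, -0.33, -0.10 and -0.08 in BD. CHR1 (DDM1), a chromatin remodeler needed for DNA methylation, averaged 346 ± 22.5 in TT and 290.0 ± 40.3 in BD (SD, n = 5 each), a log2 difference of 0.26 (SE 0.11, unadjusted p = 0.0238 and adjusted p = 1, limma). MET1, the methyltransferase of CG sites, averaged 1148 ± 243 in TT and 1001.1 ± 264 in BD, a difference of 0.21, and the difference of the means was smaller than the SD of either group. These genes were picked after their values were seen.

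Growth and photosynthesis genes showed smaller shifts. Of 29 genes of cell division and DNA replication 27 were higher in TT, at a median of 0.13 (0.14 without BD04, with 23 higher and 6 lower). Of 20 Calvin cycle genes 18 were higher, at 0.13 (0.07 without BD04), and of 43 genes of the photosystems and their antenna 37 were higher, at 0.10 (0.01 without BD04, with 23 higher). Heat shock genes had a median of -0.19 with BD04 and -0.04 without it, and abscisic acid, cold and drought genes -0.18 and -0.07. The heat shock list held AT5G48570, an FKBP-type peptidyl-prolyl isomerase, which averaged 169 ± 45.3 in TT and 378 ± 189 in BD, a log2 difference of -1.08 (SE 0.31, unadjusted p = 0.00319 and adjusted p = 1, limma; -0.83 without BD04). The 24 circadian clock genes (0.02) and 27 genes of the 26S proteasome (-0.00) lay at the level of all genes. Of the 34 lists 25 kept the sign of their median without BD04.

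Families of genes that share a symbol or a product name were compared in the same way, by a rule set after the data were seen. The families named here were picked after their values were seen. Some share members with the lists, as the WRKY factors do, and are no separate check of them. Of 105 symbol families with 10 or more members of sufficient level, the lowest median in TT was that of the WRKY factors, regulators of defence. It was -0.29 (-0.12 without BD04 and -0.13 without TT05), with 38 of 46 lower. Receptor-like proteins (RLP, 45 genes) followed at -0.26 and cysteine-rich receptor-like kinases (CRK, 35 genes) stood at -0.19, but without BD04 these medians were -0.03 and 0.02. NAC factors (51 genes) had -0.21, and -0.12 without BD04, with 34 lower. At the upper end stood the PIP aquaporins, water channels of the plasma membrane, at 0.23 (0.12 without BD04) with 12 of 12 higher. The KCS enzymes of wax and fatty acid elongation had 0.19 (0.07 without BD04) with 16 of 17 higher, the CHR chromatin remodelers 0.19 (0.16) with 11 of 12, the ABCB transporters 0.18 (0.16) with 14 of 16, and the fasciclin-like arabinogalactan proteins (FLA) 0.16 (0.11) with 13 of 13.

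Product names gave 189 families, which overlap with the symbol families. SNF7 proteins, parts of the ESCRT complex that sorts membrane proteins, were lower in TT in 10 of 10 genes at a median of -0.24 (-0.16 without BD04). Small nuclear ribonucleoproteins, parts of the splicing machinery, were lower in 18 of 21 genes at -0.11 (-0.13 without BD04). Pentatricopeptide repeat proteins, which process RNA in plastids and mitochondria, were higher in 169 of 216 genes at a median of 0.11 (0.10 without BD04), and in a further 24 genes named in another spelling 23 were higher, at 0.18 (0.16). RNA helicases were higher in 10 of 10 genes at 0.15 (0.13), and genes whose product name starts with Tudor in 15 of 15 at 0.15 (0.16).

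In each direction the 5 genes with the smallest p-values, each with a limma adjusted p of 1, were members of none of the lists. Of the 5 higher in TT, ASN3, an asparagine synthetase, had 562, 467, 468, 481 and 534 in TT, against 447, 426, 334, 348 and 416 in BD, a log2 difference of 0.35 (SE 0.10, unadjusted p = 0.00368). AT5G18430, a GDSL-type lipase, had 176, 177, 164, 210.1 and 175 in TT, against 109, 121, 136, 101 and 132 in BD, a difference of 0.59 (SE 0.16, unadjusted p = 0.0018). All TT plants lay above all BD plants in both. The Dof zinc finger gene AT5G65590 had 136, 135, 121, 166 and 122 in TT, against 81.1, 111, 98.8, 79.9 and 114 in BD, a difference of 0.49. AT1G30020, of the DUF538 family, had 18.7, 13.0, 10.6, 17.1 and 14.3 in TT, against 8.19, 8.91, 9.88, 6.14 and 7.49 in BD, a difference of 0.78. AT5G48060, a C2 domain protein, had 40.003, 25.99, 25.9, 27.7 and 24.9 in TT, against 20.5, 21.6, 12.1, 19.203 and 13.7 in BD, a difference of 0.71. The groups did not overlap in these genes either, and without BD04 the 5 differences were 0.31 to 0.75.

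Of the 5 lower in TT, 2 belonged to the cytochrome P450 family, and of these CYP77A5P is annotated as a pseudogene. CYP77A5P had 287, 267, 225, 268 and 289.8 in TT, against 340.0, 312, 361, 414 and 416 in BD, a difference of -0.46 (SE 0.11, unadjusted p = 0.000541, the smallest of all genes). CYP71B26 had 1235, 1152, 1293, 952 and 1201 in TT, against 1488, 1519, 1705, 1834 and 1388 in BD, a difference of -0.44 (SE 0.11, unadjusted p = 0.0014). MYB112, a transcription factor, had 12.4, 16.2, 2.88, 4.27 and 5.74 in TT, against 19.7, 21.6, 24.1, 39.2 and 18.7 in BD, a difference of -1.64. Again no TT plant reached the lowest BD plant in any of them. AT1G12390, a cornichon family protein, had 127, 97.5, 107, 124 and 119 in TT, against 143, 158, 191, 134 and 172 in BD, a difference of -0.47. AT1G12160, a flavin-containing monooxygenase, had 12.4, 4.33, 3.84, 7.47 and 9.56 in TT, against 23.8, 12.7, 21.9, 49.2 and 18.7 in BD, a difference of -1.59. Without BD04 the 5 differences were -1.46 to -0.39. Groups that do not overlap were 0.247% of all genes with TT above BD and 0.345% with TT below, and these 10 genes were chosen for their p-values.

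**Figure D4:**
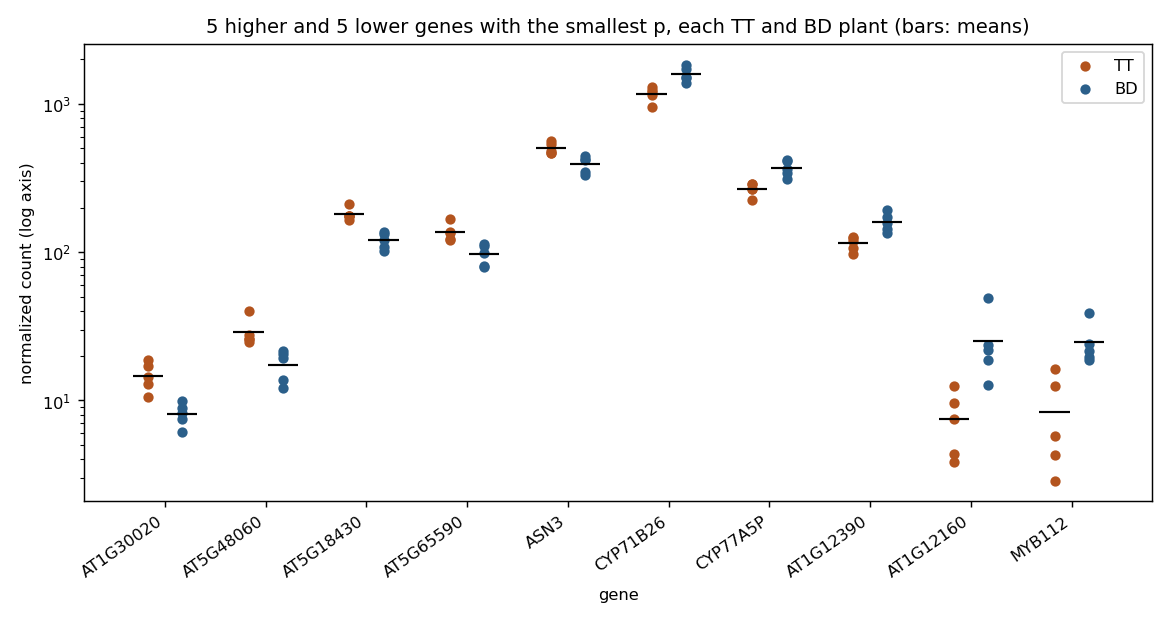
Normalized counts, on a log axis, of 10 genes in each TT plant (brown, left of each pair) and each BD plant (blue), with bars at the means. They have the smallest p-values, 5 per direction, among genes with a mean normalized count of 10 or more. TT and BD points do not overlap for any of the 10 genes, with MYB112 spanning 2.88 to 16.2 in TT and 18.7 to 39.2 in BD.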

How the data were processed

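RNA of 15 plants was sequenced (750 ng of total RNA, 10 PCR cycles, 75 bp single reads), and the authors combined 4 technical replicates per plant. They trimmed reads with Trimmomatic 0.38, aligned them with STAR 2.6.0c to TAIR10, keeping reads that fit several places, quantified genes with Salmon 0.11.3 and normalized them with DESeq2 1.22. The authors deposited normalized counts (a signal, counts divided by a size factor per plant), rlog values on the log2 scale and TPM. Whole reads were recovered for 100% of normalized counts within 0.001. TPM served for levels between genes and rlog for an alternative.

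R 4.3.3 ran limma 3.58.1 to compare TT with BD on log2(normalized count + 1), with all 15 plants, a trended variance, 2-sided tests and Benjamini-Yekutieli adjusted p under 0.05. No filter on low values was applied to this test. A fold change on this scale understates that of low genes. edgeR 4.0.16 and DESeq2 1.42.0 on the recovered reads were alternatives, as were other pseudocounts, a minimum mean count, TPM, rlog, quantile normalization, array weights and leaving out each plant. EIN3 was compared by an exact permutation test. Other steps used scipy 1.17.1, pandas 2.3.3 and numpy 2.4.6 under Python 3.11.15, with plots by matplotlib 3.10.9, and the fit was tested on simulated data.

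The lists, and the choice of TT and BD, were made with earlier results of these data known. Genes were named by rule. In each of the 8 lists with the largest medians (8 or more members of mean count 10 or more) these were the 3 smallest unadjusted p-values and the highest TPM. To these came EIN3 and, among all genes of mean count 10 or more, the 5 higher and 5 lower with the smallest p. Other genes were named after their values were seen. Windows and symbols came from RefSeq on TAIR10.1, in which 21283 genes matched. Counting error is all that the depths cover.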

Additional observations from a re-analysis of the deposited data

Results flagged for a closer look

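The named genes and the levels of the 8 lists gave 96 groups of 5 plants. In 7 of them the highest or lowest plant stood apart from the other 4 by more than 0.71 of the group's range. Chance gives this at either end in about 5% of groups of normally distributed values, which normalized counts need not be. All 7 were the highest plant in a normalized count, and 3 of the 7 were BD04. In TT, AOC2 had 9096 normalized counts in TT01, with the next plant at 7661, and AT5G48060 had 40.003 in TT01, with the next at 27.7. BT2 had 15460.1 in TT04, with the next at 3284, and AT5G18430 had 210.1 in TT04, with the next at 177. In BD, PR1 had 40179 in BD04, with the next at 7602, SHD had 30539.5 in BD04, with the next at 14582, and MYB112 had 39.2 in BD04, with the next at 24.1.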

How the results depend on the processing

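The count of 0 genes past the adjusted threshold held in limma, edgeR and DESeq2 and under every alternative, with a smallest Benjamini-Hochberg adjusted p of 0.970 in limma and 0.368 in DESeq2. The 514 genes at an unadjusted p under 0.05 became 805 with TT and BD alone in the fit, 1644 with array weights, and 346 (without TT05) to 1236 (without TT04) with a plant left out, including 790 without BD01 and 813 without BD02. Of these genes 41.1% were higher in TT, against 57.1% after quantile normalization, 28.2% with edgeR under TMM, 30.8% with the authors' size factors and 29.9% with DESeq2. The 127 genes without overlap became 192 (without TT05) to 614 (without TT04) with fewer plants. The median SD on rlog values was 0.107 in TT and 0.139 in BD, since rlog shrinks low genes. The 8 list medians kept their direction in all 184 comparisons under 23 settings, with sugar starvation at -0.0011 without TT05. The lists were chosen for large medians in these same plants, which the settings reuse, so a kept sign is no separate support. Named genes kept theirs in all but 4 of 919 comparisons. PR1 was at 0.37 with array weights and at -1.78 (without BD02) to 0.51 (without BD04) with a plant left out, including 0.24 without TT04. GSTU20 was at -0.34 (without BD01) to 0.021 (without BD05). The EIN3 difference was 0.18 to 0.27 with a plant left out, in an alternative added after the data were seen.

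Deviations of TT and BD plants of the same number correlated at 0.27, -0.14, 0.12, -0.39 and 0.35 for numbers 1 to 5. TT plants 1, 3 and 5 correlated best with the BD plant of their own number and TT plants 2 and 4 did not, a hint from the data and not from the design, and the numbers were not used as pairs. With the number as a replicate block 629 genes had an unadjusted p under 0.05, 296 higher and 333 lower in TT, and 0 passed the adjusted threshold. Depth limits genes such as GSTU12, with under 5 normalized counts in each TT and BD plant.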
